A study of Mus musculus with 36 samples.

Results

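The genes of the Trim5 and Trim30 cluster were followed through the femoral marrow of Nox4 mutant mice. They were chosen by their counts in Nox4-/- against control, in which Trim12a, Trim5 and Trim30d had stood out in an earlier look at the same libraries, and Trim12c, Trim30a, Trim30b and Trim30c were added as their neighbours of the same family. Of these 7 genes, 6 had a row among the 24597 named features of the count table; Trim30c had none and has no values here. All 6 passed the filter on low counts, which left 15575 genes to test, but Trim12a did so only through its Nox4-/- libraries, since each control and CKO library held 0 to 6 counts of it. Counts of called members are therefore given over the 5 other genes. The cluster takes 244.5 kb of chromosome 7 (mm10, chr7:104263386-104507853), all 7 genes lie on the minus strand, and Nox4 lies on the same chromosome 16.9 Mb away (chr7:87244430-87398710).

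RNA was taken from femoral marrow, the blood-forming tissue inside the thigh bone, at 3 and 32 weeks of age from females and males, and each library was pooled from 2 to 4 mice on a C57BL/6J background. Controls were Nox4 fl/fl, with both Nox4 alleles floxed and no Cre in the label (12 libraries, 3 for each sex and age). The conditional knockout, CKO, was PrxCre +/ Nox4 fl/fl, with the same floxed alleles and a Cre driven by the Prx promoter, which acts in the mesenchyme of the limb bud (12 libraries, 3 for each sex and age). Nox4-/- mice, labelled Nox4 0/0, lack exons 1 and 2 of the gene in every cell and have no floxed allele in their label, so Nox4-/- and control can differ in the engineered allele as well as in Nox4 (11 libraries, 3 for each sex and age but 2 for males of 3 weeks). A further male library of 3 weeks was labelled Nox4 0/1; it is no replicate of a group by its label, held 405512 counts, and was kept out of the comparisons.

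TRIM proteins carry a RING domain, a B-box and a coiled coil, and many act as ubiquitin ligases in innate immunity. Primate TRIM5 binds the capsids of incoming retroviruses, and rodents carry several relatives of it, among them Trim5, Trim12a and Trim12c. Trim12c has been described as a partner of TRAF6 that promotes interferon and NF-kB signalling. Trim30a is induced by interferon and restrains signalling from Toll-like receptors by acting on TAB2 and TAB3, and Trim30d has been reported to restrict flaviviruses.

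The start regions of 4 of these genes are printed here, since they show how alike the neighbours are that behaved differently below. Each is the RefSeq window that ends 50 bases after the start (GRCm38.p6, minus strand). Capitals mark the match to a motif like that of interferon-response elements, GAAA, any 2 bases and GAAA again, searched on both strands. The windows are chr7:104315446-104315745 for Trim12a, chr7:104353300-104353599 for Trim12c, chr7:104465144-104465443 for Trim30a and chr7:104507800-104508099 for Trim30d.
Trim12a: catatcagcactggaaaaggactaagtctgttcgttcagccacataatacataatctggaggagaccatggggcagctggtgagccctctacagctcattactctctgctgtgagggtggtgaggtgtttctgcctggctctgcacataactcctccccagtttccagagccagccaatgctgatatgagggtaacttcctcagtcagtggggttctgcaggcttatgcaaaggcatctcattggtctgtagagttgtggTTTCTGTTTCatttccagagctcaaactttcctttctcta
Trim12c: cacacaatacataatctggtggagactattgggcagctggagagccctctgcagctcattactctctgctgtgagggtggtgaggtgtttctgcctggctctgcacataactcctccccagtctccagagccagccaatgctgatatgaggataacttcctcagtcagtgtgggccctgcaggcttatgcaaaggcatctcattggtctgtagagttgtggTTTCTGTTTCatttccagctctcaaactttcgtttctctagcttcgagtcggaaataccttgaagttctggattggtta
Trim30a: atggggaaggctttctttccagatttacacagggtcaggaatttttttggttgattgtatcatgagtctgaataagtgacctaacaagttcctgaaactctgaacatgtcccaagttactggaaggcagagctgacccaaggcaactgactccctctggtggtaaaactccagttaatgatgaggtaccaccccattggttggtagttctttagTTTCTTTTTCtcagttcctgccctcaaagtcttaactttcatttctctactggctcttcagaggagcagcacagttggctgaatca
Trim30d: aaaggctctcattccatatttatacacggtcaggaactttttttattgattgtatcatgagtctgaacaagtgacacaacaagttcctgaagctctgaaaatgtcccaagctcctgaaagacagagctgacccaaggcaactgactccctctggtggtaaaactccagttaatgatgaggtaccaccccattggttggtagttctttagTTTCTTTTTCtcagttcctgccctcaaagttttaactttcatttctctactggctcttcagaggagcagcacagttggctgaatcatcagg

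The windows of Trim12a and Trim12c were 95% identical over 260 aligned bases, and those of Trim30a and Trim30d 93.6% over 295. The Trim5 window (chr7:104288057-104288356), shifted against the first of these, was 100% identical to that of Trim12a over 241 aligned bases. The GAAA repeat was matched in the windows of Trim5, Trim12a, Trim12c, Trim30a and Trim30d and not in those of Trim30b and Trim30c, against 3.44% of 32851 RefSeq windows of this length. The match began 49 bases before the start in Trim5, 29 before in Trim12c, 36 before in Trim30a and 41 before in Trim30d, and 11 bases after it in Trim12a. Trim30a has a second RefSeq start (chr7:104446076-104446375), not printed here, where the match began 3 bases after the start. TTCNNNGAA, the core of the motif bound by STAT proteins, was matched only in the window of Trim30c, against 8.3% of all windows. These matches describe letters and no bound site.

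The transcripts resemble each other as well, and how reads that matched several genes were assigned is not given in the sources used here. Of all stretches of 50 bases in its exons, Trim5 shared 36.3% exactly with some other gene, Trim12c 33% and Trim12a 10.4%. The shares were lower in the other genes, with 7.49% in Trim30d, 5.98% in Trim30a and 0.55% in Trim30b. Of the Trim5 stretches, 23.5% were shared with Trim12c and 7.87% with Trim12a. Of the Trim12a stretches, 5.04% were shared with Trim5 and 3.96% with Trim12c, and Trim30d and Trim30a shared 6.39% of the Trim30d stretches, whereas Trim30d shared 0% with Trim5 or Trim12a. A single gene of the Trim5 group can therefore hold reads of its neighbours. Each test below was also run on the summed counts of the 6 genes, which does not depend on how reads were split among them. In control and CKO, Trim12c held 46.4 to 65.2% of that sum and Trim30a 31.7 to 48.8%. The sum therefore mostly follows Trim12c and Trim30a and says little on the other genes.

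The 35 libraries compared held 11193750 to 163611881 counts on named genes (median 32797988), and levels are given as CPM, counts scaled to library sizes that were adjusted by TMM. In control and CKO, depth did not overlap between the ages, at 32316236 to 49959972 counts at 3 weeks and 11193750 to 25295855 at 32 weeks. The part of depth in the changes with age was not tested. Nox4 itself was read 16 times in the 351060095 counts of the control libraries, 8 times in the 357966579 of CKO and 0 times in the 483433108 of Nox4-/-, which allows a level of up to 0.0062 CPM by counting error alone. At 3 weeks each of the 6 control libraries held 1 to 6 of these counts and each of the 5 Nox4-/- libraries 0. At 32 weeks 5 of the 6 control libraries held 0 as well, so Nox4 says little on the label of a single library at that age. Markers of macrophages, neutrophils, B cells and erythroid cells were all read. Since every library was a bulk tissue, fewer cells of a type and less RNA per cell cannot be told apart. All p-values measure the spread between pooled libraries.

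The levels of the 6 genes in control marrow spanned a wide range. Per kb of exon, over all transcripts that GENCODE M21 lists, the median control level was 25.9 CPM for Trim12c, 17.1 for Trim30a, 0.642 for Trim30b, 0.612 for Trim30d, 0.291 for Trim5 and 0.002 for Trim12a (n = 12 libraries each). Trim12c and Trim30a did not overlap with the other 4 genes or, but for their edges, with each other, at 22.6 to 29.5 and 13.4 to 25 CPM per kb. Trim30b and Trim30d, at 0.303 to 1.21 and 0.262 to 1.25, could not be ordered beyond their spread, and Trim5, at 0.169 to 0.44, overlapped with both. For Trim30b the value depends on the annotation, since those exons come to 7527 bases, but to 2771 over the 1 transcript paired with RefSeq, which the counts were made against. With the shorter length, an alternative chosen after seeing the data, its median was 1.74 CPM per kb, at 0.823 to 3.3, which still overlapped with Trim30d at its edge and lay above Trim5. The median of Trim12a was then 0.00778, and the order of the 6 genes by median stayed as given. Trim12a was close to unread, with 10 counts in the 12 control libraries together and 0 counts in 6 of them.

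**Figure D1:**
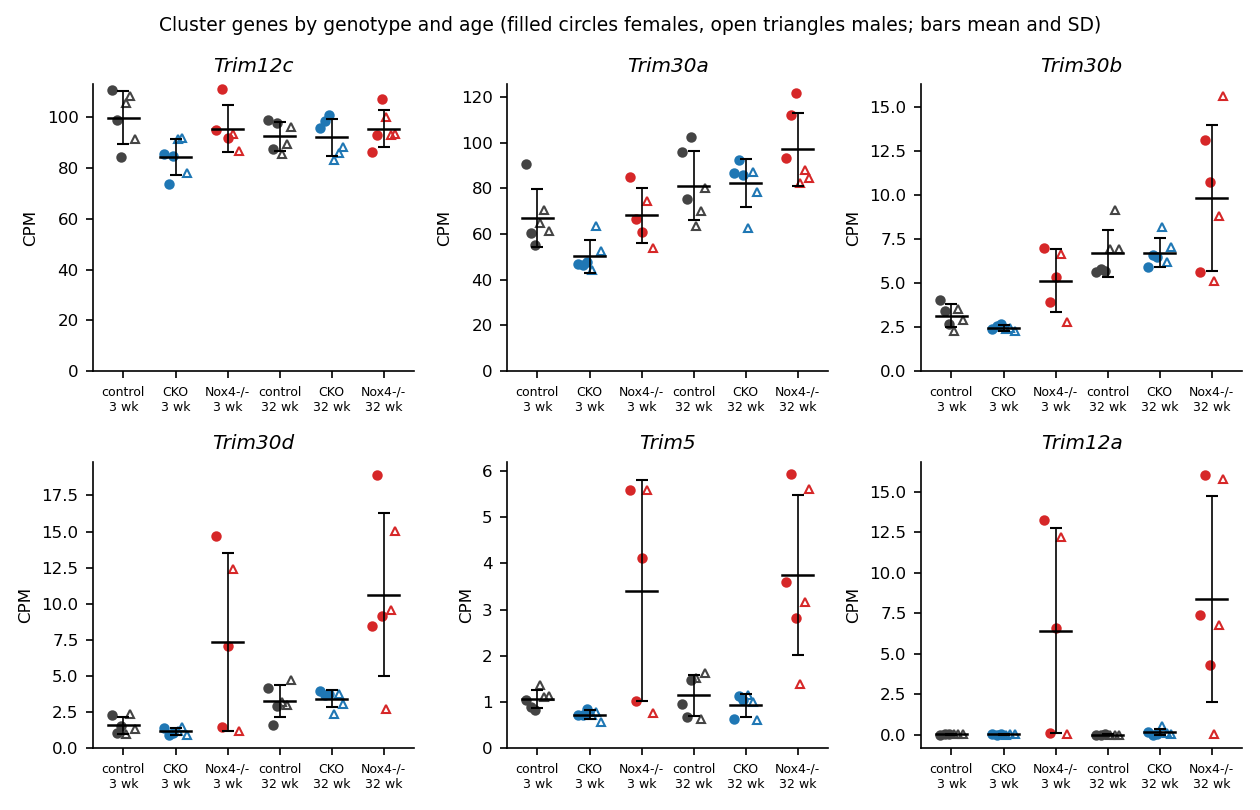
Level of each of the 6 genes (CPM, linear axes) in every library by genotype and age, with filled circles for females, open triangles for males, and bars for the mean and SD. Control and CKO libraries of Trim12a sit at or near 0 CPM, at most 0.533, while Nox4-/- libraries reach 16.05, and Trim30b rises from 3 to 32 weeks in control and CKO with no overlap.

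In Nox4-/- marrow, Trim12a was high in most but not all libraries. Females of 3 weeks had 486, 3 and 268 counts in replicates 1 to 3, or 13.2, 0.0826 and 6.59 CPM. Males of 3 weeks had 455 counts (12.2 CPM) in replicate 1 and 5 counts (0.0310 CPM) in replicate 3, the deepest library of the series. At 32 weeks, females had 365, 696 and 103 counts (7.41, 16.05 and 4.34 CPM) and males 1, 122 and 214 counts (0.0466, 6.77 and 15.8 CPM). In Nox4-/-, 3 libraries, one from females and one from males of 3 weeks and one from males of 32 weeks, thus held no more than 5 counts each, and every other one held over 100. Control libraries held 0 to 3 counts, at most 0.0720 CPM, and 9 of 11 Nox4-/- libraries lay above that, one of them with only 3 counts. The mean was 7.50 ± 6.12 CPM (SD, n = 11) in Nox4-/- against 0.0241 ± 0.0290 (n = 12) in control, a ratio of 311 whose control mean rests on 10 counts. The spread within Nox4-/- means that this ratio describes no single library.

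Trim5 followed the same libraries. In females of 3 weeks its levels were 5.58, 1.02 and 4.11 CPM, and in males of 3 weeks 5.58 and 0.762 CPM. At 32 weeks they were 3.59, 5.93 and 2.82 CPM in females and 1.40, 3.16 and 5.60 CPM in males. The 3 lowest of the 11 were the libraries that held almost no Trim12a, and they lay within the control range of 0.623 to 1.62 CPM, whereas the other 8 lay above it. The mean was 3.60 CPM in Nox4-/- against 1.10 ± 0.332 (SD, n = 12) in control, a ratio of 3.26.

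Trim30d, at the other end of the cluster, did likewise. Its levels were 14.7, 1.46 and 7.06 CPM in Nox4-/- females of 3 weeks, and 12.4 and 1.23 CPM in males. At 32 weeks they were 8.46, 18.9 and 9.14 CPM in females and 2.75, 9.55 and 15.02 CPM in males. The same 3 libraries were the lowest and lay within the control range of 0.984 to 4.71 CPM. The mean ratio to control was 3.77 (9.16 against 2.43 ± 1.21 CPM).

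Trim30b was also higher in part of the Nox4-/- libraries of each age. At 3 weeks it was at 7.0, 3.94 and 5.34 CPM in females and 6.62 and 2.79 in males, against 2.28 to 4.05 in control, with 3 of 5 libraries above the highest control of that age. At 32 weeks it was at 5.62, 13.1 and 10.7 CPM in females and 5.12, 8.82 and 15.6 in males, against 5.61 to 9.14 in control, with 3 of 6 above. The 3 libraries low for Trim12a, at 3.94, 2.79 and 5.12 CPM, were the lowest of their ages. The mean ratio over all libraries was 1.57. The other pair overlapped with control in most libraries. Trim30a, at 54.1 to 121.5 CPM against 55.1 to 102.6, had a mean ratio of 1.13 and 2 libraries above. Trim12c, whose start region is so close to that of Trim12a, was at 86.3 to 111 CPM against 84.4 to 110.5, with a mean ratio of 0.994 and 1 library above. Nox4-/- against control is the contrast that led to the choice of these genes, so its values are a description and carry no test. The share of all genes called in it was 0.0193%, and the share with at least 8 of the 11 libraries above the highest control was 0.0321%. Because the choice was made on these values, nothing about the cluster is read from either share.

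**Figure D2:**
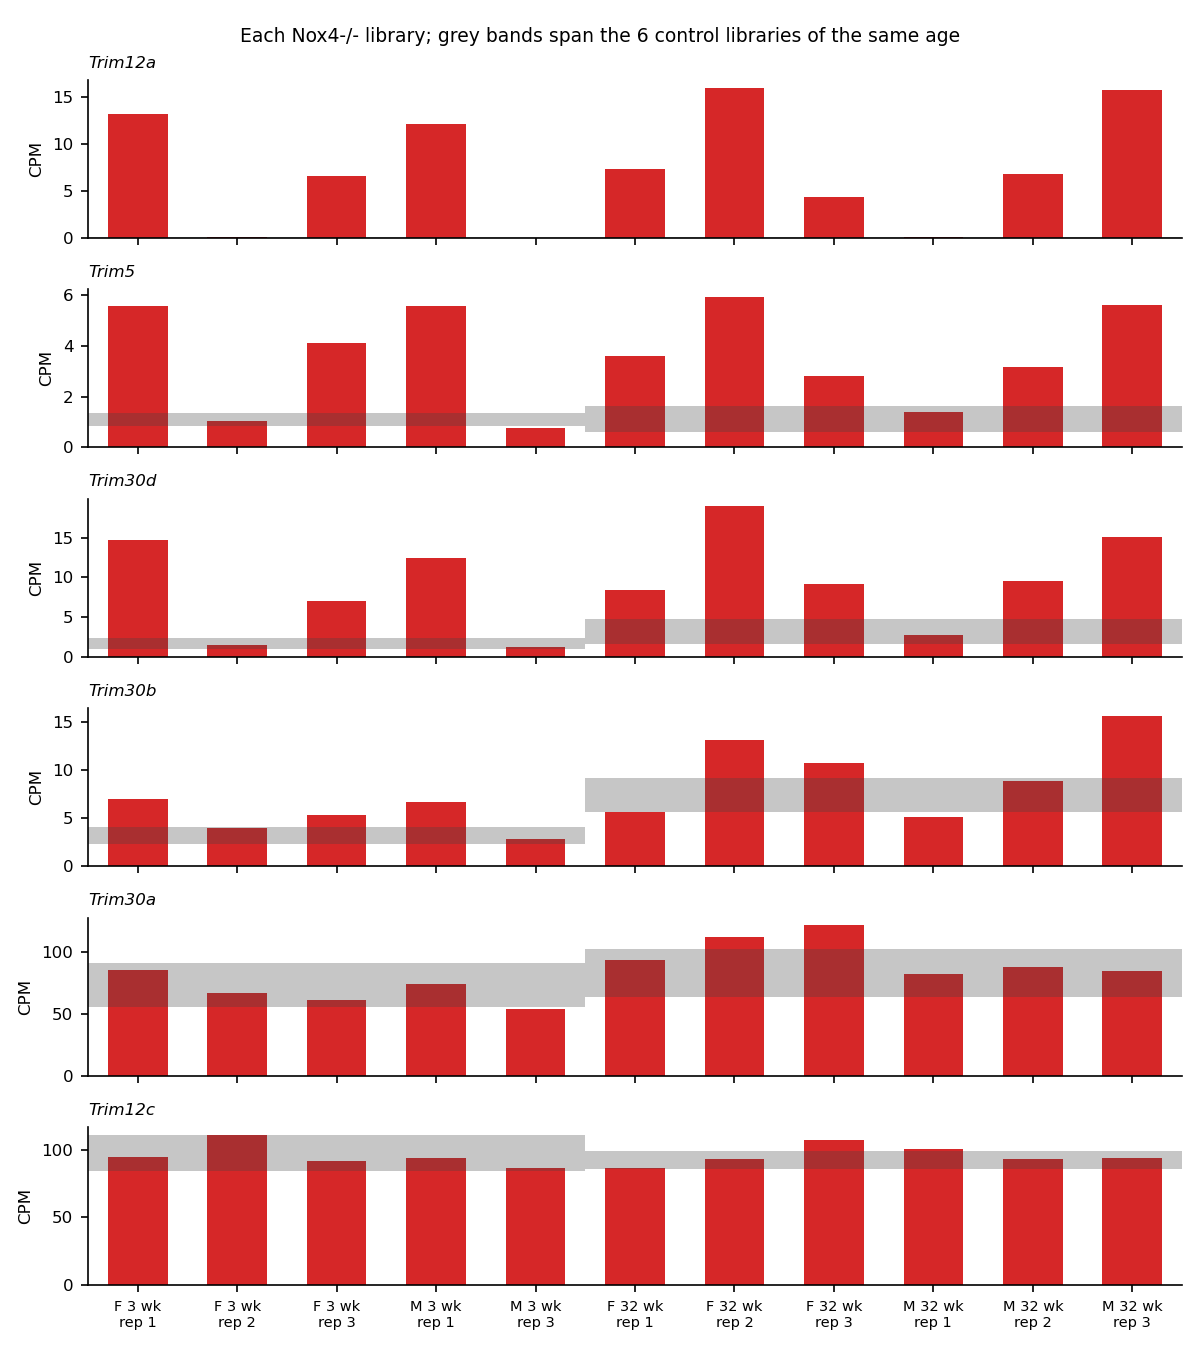
Level (CPM) of the 6 genes in each of the 11 Nox4-/- libraries, as bars, with the range of the 6 control libraries of the same age as a grey band. For Trim12a, Trim5 and Trim30d the bars of the same 3 libraries stay at the level of the band, whereas Trim12c stays between 86.3 and 111 CPM in every library.

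Within a library, the split of reads among the 6 genes moved as well. Trim12a took 1.70 to 6.85% of the counts of the cluster in 8 Nox4-/- libraries and 0.0213 to 0.0449% in the 3 with at most 5 counts. Over the 11 Nox4-/- libraries, the log2 CPM of Trim12a, less the mean of each sex and age, had a Pearson r of 0.967 with Trim5 and of 0.969 with Trim30d, and Trim5 and Trim30d one of 0.988. Trim30b had r of 0.82 with Trim12a, 0.823 with Trim5 and 0.857 with Trim30d over the same libraries. Over the 24 control and CKO libraries, Trim12a had r between -0.124 and 0.011 with the 5 others, and Trim12c with Trim30a 0.754. The part of stretches shared between Trim5 and Trim12a in their r was not tested. These values describe libraries that share depth and composition, and near-zero counts of Trim12a leave little to correlate in control and CKO.

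The library labelled Nox4 0/1 held 27 counts of Trim12c, 23 of Trim30a and 1 of Trim30b, and 0 of Trim12a, Trim5 and Trim30d. At its depth, 3 counts correspond to 7.4 CPM. The Trim12a levels of 4.34, 6.59 and 6.77 CPM in Nox4-/- lay below that limit, and those of 7.41 to 16.05 CPM at or above it.

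By the measure of likeness used for the cluster, over all 35 libraries, the genes most like Trim12a were Trim5 (r = 0.871), Trim30d (0.852), Gm1966 (0.815), Trim30b (0.739) and Btbd10 (0.695). Those most like Trim5 were Trim30d (0.908), Trim12a (0.871), Gm1966 (0.814), Trim30b (0.783) and Trim34a (0.740), and those most like Trim30d were Trim5 (0.908), Gm1966 (0.875), Trim30b (0.860), Trim12a (0.852) and Pgap2 (0.753). All of these lie on chromosome 7. The likeness removes the means of sex and age but not of genotype, and Trim12a was near 0 outside Nox4-/-, so this order restates in part the Nox4-/- against control values that chose the genes, and nothing further is read from it. Over the 11 Nox4-/- libraries alone, the genes most like Trim12a were Trim30d (0.969), Trim5 (0.967), Enpp5 (0.949), 4921524J17Rik (0.945) and Smarcal1 (0.94). Trim5 was followed by Trim30d (0.988), Trim12a (0.967), Mbtd1 (0.955), AI987944 (0.951) and Smarcal1 (0.945), and Trim30d by Trim5 (0.988), Icosl (0.97), Trim12a (0.969), Zfp563 (0.942) and Mbtd1 (0.934). Of these genes outside the cluster AI987944 lies on chromosome 7, and Enpp5 and Zfp563 lie on 17, 4921524J17Rik on 8, Smarcal1 on 1, Mbtd1 on 11 and Icosl on 10.

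The neighbours by position on chromosome 7 were tested in Nox4-/- against control. Between the outermost members, Trim34b and Gm15133 were the 2 other genes tested, with log2 fold changes of -0.28 and 0.20 in Nox4-/- against control and edgeR adjusted p = 1 for both. Within 2 Mb of the cluster, 0 of 39 genes were called by edgeR, and 8 (20.5%) had an unadjusted p under 0.05. Between Nox4 and the cluster, 0 of 127 were called and 11 (8.66%) had such a p, against 4% of all genes. Whether these shares differ was not tested. Gm1966, which lies beyond the cluster on the side away from Nox4, ran from 62.9 to 164 CPM in Nox4-/- and from 51.7 to 101 in control (log2 fold change 0.47), a description without a test, since it was named for its likeness to Trim12a, Trim5 and Trim30d. Of genes named after their values were seen, Trim34a next to Trim5 had a log2 fold change of 0.40, and Trim68 and Inppl1 ones of -0.27 and -0.21. Gvin1, a very large interferon-inducible GTPase, and Gm4070 each had one of 0.21. Gvin1 and Gm4070 had near the same levels, at 55.2 to 140 and 56.2 to 142 CPM in Nox4-/-, and are not read as separate genes.

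**Figure D3:**
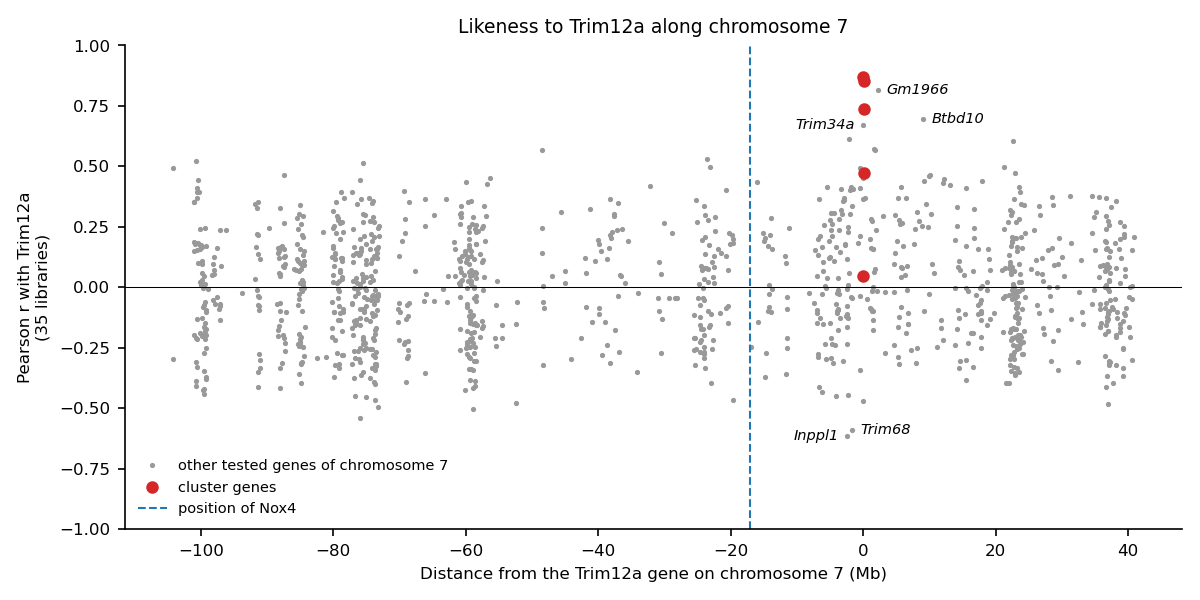
Pearson r of each tested gene of chromosome 7 with Trim12a over the 35 libraries, against its distance from Trim12a in Mb, with a dashed line at Nox4. Trim5 and Trim30d (r of 0.871 and 0.852) stand highest, Gm1966 (0.815) and Btbd10 (0.695) lie at a distance, and Trim68 (-0.591) and Inppl1 (-0.615) stand lowest of the genes labelled.

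With age, a contrast that did not choose the genes, the 3 Trim30 genes rose, and Trim12c stayed near the same mean. In control and CKO, 3 of the 5 genes other than Trim12a rose from 3 to 32 weeks and 0 fell, where edgeR called 79.2% of all genes and called 39.3% higher. Trim30b rose from 2.80 ± 0.575 to 6.71 ± 1.06 CPM (SD, n = 12 each), with a log2 fold change of 1.26 (SE 0.162, edgeR adjusted p = 2.65e-08), and every library of 32 weeks lay above every library of 3 weeks, as for 18.1% of all genes. Trim30d rose from 1.37 ± 0.481 to 3.35 ± 0.835 CPM, by 1.32 (SE 0.365, edgeR adjusted p = 0.00157), with 11 of 12 older libraries above the highest young one. The share of all genes with at least 11 was not counted. Trim30a rose from 58.6 ± 13.2 to 81.7 ± 12.4 CPM, by 0.49 (SE 0.0796, edgeR adjusted p = 1.79e-06), and its ages overlapped.

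Trim5 and Trim12c did not pass with age. Trim12c was at 92.0 CPM at 3 and 92.2 at 32 weeks, and the interval of its log2 change ran from -0.09 to 0.10. Trim5 was at 0.896 and 1.04 CPM, with an interval of -0.46 to 0.91 that leaves room for a change in either direction. That interval rests on a spread shared by all groups, Nox4-/- included. With library sizes that were not scaled by TMM, Trim12c passed at 0.14 (edgeR adjusted p = 0.018), and that scaling moved the median of all genes by 0.134. Trim12a had too few counts in control and CKO for a fold. With the Nox4-/- libraries included, edgeR called the same 3 genes higher, by 1.17 for Trim30b, 1.07 for Trim30d and 0.50 for Trim30a, where it called 82.4% of genes and 40.6% higher. The summed cluster rose by 0.26 in control and CKO (SE 0.0622, edgeR adjusted p = 0.000429).

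Other genes of these pathways were called in both directions with age in control and CKO, beside 79.2% of all genes called and 39.3% called higher. Of 34 interferon-stimulated genes tested, 17 rose, such as Ifi44 (1.67) and Zbp1, a sensor of nucleic acids (1.23), and 11 fell, such as Rsad2, the antiviral enzyme viperin (-0.96). Of 18 genes from Toll-like receptors to NF-kB, 12 rose, among them Tlr7 (0.76) and the adaptor Myd88 (0.59), and 6 fell, among them Tab3 (-0.71) and Tab1 (-0.52). Interferon receptors and their signal transducers rose in 10 of 15, with Irf1 at 0.93, and fell in 3, with the kinase Tbk1 at -0.33. Among 47 other Trim genes tested, 17 rose and 17 fell, with Trim29 at 5.79 and Trim59 at -1.11. The median log2 change was 0.20, 0.36, 0.20 and -0.03 in the 4 lists and -0.003 over all genes.

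Most cell markers were called over the same interval, as were 79.2% of all genes, with 39.3% called higher. All 10 macrophage and monocyte markers, all 8 of neutrophils, all 8 of dendritic cells, all 7 of T and NK cells and all 6 of megakaryocytes rose, and all 8 markers of B cells and all 8 of erythroid cells fell. Of 8 osteoblast and stromal markers 5 rose and 2 fell, and of 6 adipocyte markers 4 rose. The summed level of the macrophage and monocyte markers was 990 to 1330 CPM in the control and CKO libraries of 3 weeks and 2200 to 2690 in those of 32 weeks. The part of these shifts in the rise of Trim30a, Trim30b and Trim30d was not tested.

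In CKO against control, a comparison that did not choose the genes, the abundant members were lower at 3 weeks. Trim30a was at 46.78, 46.28 and 47.54 CPM in CKO females and 44.41, 63.4 and 52.62 in CKO males, against 90.82, 60.21 and 55.06 in control females and 64.98, 70.29 and 61.35 in control males. In 5 of 6 CKO libraries it lay below the lowest control. How many of all genes did so was not counted, here or for such counts below, and nothing is read from them. It fell by 0.42 on the log2 scale (SE 0.111, edgeR adjusted p = 0.00623). Trim12c was at 73.82 to 91.61 CPM (median 85.1) in CKO and 84.36 to 110.5 (median 102) in control, with 2 of 6 CKO libraries below the lowest control, and it fell by 0.25 (SE 0.0653, edgeR adjusted p = 0.00635). With 2 of the 5 genes other than Trim12a called, both lower, the background was 25.9% of all genes called and 11.6% called lower. Of the 4033 genes called, 2223 were higher, whereas with library size only 4442 were called and 991 of them were higher, and with the compared groups fitted alone 2070 were called.

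Trim5, Trim30b and Trim30d did not pass at 3 weeks. The fit took 1 spread per gene over all 12 groups, Nox4-/- included. In Nox4-/- Trim5 ran from 0.762 to 5.93 CPM and Trim30d from 1.23 to 18.9, and that spread entered the intervals here. Trim5 was at 0.560 to 0.852 CPM in CKO and 0.829 to 1.37 in control, and 5 of 6 CKO libraries lay below the lowest control, but its log2 fold change of -0.53 had an interval of -1.38 to 0.32. It was called when the compared groups were fitted alone (edgeR adjusted p = 0.0363). Trim30b and Trim30d had log2 fold changes of -0.35 and -0.46. Trim12a was read 7 times in CKO and 9 times in control. The summed cluster fell by 0.32 (SE 0.0874, edgeR adjusted p = 0.00807), and without replicate 1 of the control females its adjusted p was 0.0519.

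At 32 weeks no member differed between CKO and control in edgeR's test, with 0 of 5 at an unadjusted p under 0.05 and 0.00642% of all genes called. Trim12c was at 83.08 to 100.7 CPM in CKO and 85.53 to 98.72 in control, with an interval of the log2 change of -0.15 to 0.13. Trim30a was at 62.75 to 92.3 and 63.69 to 102.6 CPM, with an interval of -0.21 to 0.26. Trim12a was read 13 times in CKO and 1 time in control at this age, and 6 of the 13 counts were in a single library, replicate 1 of the males (0.533 CPM). The CKO effect itself was not shown to differ between the ages. The difference was 0.45 for Trim30a (edgeR adjusted p = 0.0814) and 0.24 for Trim12c (0.117), with 0 of 5 genes called, 2 at an unadjusted p under 0.05, and 5.62% of all genes called. Over both ages together, 0 of 5 genes were called, 2 had an unadjusted p under 0.05, and edgeR called 6.92% of all genes.

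Related genes were called in CKO at 3 weeks beside a background of 25.9% of all genes called and 11.6% called lower, and whether their shares differ from it was not tested. Of the 34 interferon-stimulated genes, 7 were lower and 0 higher, with Ifit3 at -0.69, the RNA sensor Ddx58 at -0.37 and Stat2 at -0.22, but the count was 1 with limma, 1 with the compared groups fitted alone and 12 with library size only. With 1 library left out it ran from 1 to 14. It was 14 without control females replicate 3, and 1 to 4 without control females replicate 1, control males replicates 1 and 2, CKO females replicates 2 and 3 or CKO males replicates 1 and 3. Toll-like receptor and NF-kB genes were lower in 6 of 18, among them Tlr9 (-0.50), Tlr7 (-0.26) and Traf6 (-0.16), and Tab1 was higher (0.19). Irf5 (-0.29), Irf8 (-0.28) and Tmem173, which codes for STING (-0.23), were among 4 of 15 interferon transducers that were lower. In 47 other Trim genes, 5 were lower, such as Trim14 (-0.41), and 2 higher, Trim27 (0.21) and Trim37 (0.14), a total of 7 that was 11 without CKO females replicate 1 and 3 to 4 without CKO females replicate 2, CKO males replicate 3, control females replicate 1 or control males replicate 2. That total was 2 with the compared groups fitted alone. Cell markers were lower in CKO for 3 of 10 genes of macrophages and monocytes, 4 of 8 of B cells, 5 of 7 of T and NK cells, 2 of 8 of dendritic cells, 5 of 8 of osteoblasts and stroma and 1 of 6 of adipocytes, and higher for 2 of 8 of erythroid cells. The summed macrophage and monocyte markers were at 990 to 1110 CPM in CKO and 1110 to 1330 in control, and their part in the lower Trim30a and Trim12c was not tested.

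Between the sexes, Trim30a was the 1 member called, at 32 weeks. At that age it was at 62.75 to 88.02 CPM in males (median 79.99, n = 9) and 75.1 to 121.5 in females (median 93.3, n = 9), with 3 males below the lowest female. It fell by 0.31 in males against females (SE 0.0923, edgeR adjusted p = 0.0285), the 1 call of 5 genes, where 10.5% of all genes were called and 4.09% were lower in males. The call was lost with library sizes that were not scaled by TMM (0.0525) and without any one of 6 libraries, namely CKO females replicate 2, CKO males replicate 1, control females replicates 1 and 3, control males replicate 1 and Nox4-/- females replicate 3 (0.0533 to 0.0704). At 3 weeks 0 of 5 were called, 0 had an unadjusted p under 0.05, and edgeR called 0.52% of all genes. Over both ages 0 were called, 1 had an unadjusted p under 0.05, and 7.15% of all genes were called. The difference of the sex effect between ages was -0.30 for Trim30a (edgeR adjusted p = 0.213), with 0 members and 3.17% of all genes called. The summed cluster did not pass between the sexes at 32 weeks, at -0.18 (SE 0.072, edgeR adjusted p = 0.106), and passed with the compared groups fitted alone (0.0401).

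Most interferon-stimulated genes differed between the sexes in old mice. At 32 weeks 30 of 34 were lower in males, where 4.09% of all genes were, with a median log2 change of -0.55 against -0.002 over all genes, among them Ifit1 (-0.99), Irf7, the transcription factor that amplifies interferon production (-0.83), and Eif2ak2, the kinase PKR (-0.30). Their summed level was 1920 to 2540 CPM in females and 1320 to 1950 in males at 32 weeks, and 0 of 34 were called at 3 weeks, where 0.52% of all genes were. The change with sex differed between the ages for 11 of 34 and for 3.17% of all genes, and for 5 to 7 of the 34 without any one of 10 libraries. All 11 were more negative at 32 weeks. At 32 weeks, with 10.5% of all genes called and 4.09% lower in males, 7 of 8 neutrophil markers were higher in males. So was 1 of 10 macrophage and monocyte markers, Cd68 (0.33). Of 7 T and NK cell markers 1 was called, Cd4, higher at 0.67, while the median of that list was -0.11. Of the 15 interferon receptors and transducers, Ifngr2 (0.33) and Ifnar1 (0.09) were higher in males and Irf8 was lower (-0.21). Of the 18 genes from Toll-like receptors to NF-kB, 1 was called, Tlr2, which was higher (0.48). Dendritic cell markers were lower in 3 of 8 and higher in 1, osteoblast and stromal markers lower in 4 of 8 and adipocyte markers lower in 3 of 6. The part of these in the lower Trim30a was not tested. In Nox4-/- against control 0 of these 34 genes and 0 of the 47 other Trim genes were called by edgeR, with 9 and 3 at an unadjusted p under 0.05, where 4.02% of all genes had such a p. The log2 changes of the 34 ran from 0.04 to 0.33, with a median of 0.16 against 0.01 over all genes, and whether this differs from the other comparisons was not tested.

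**Figure D4:**
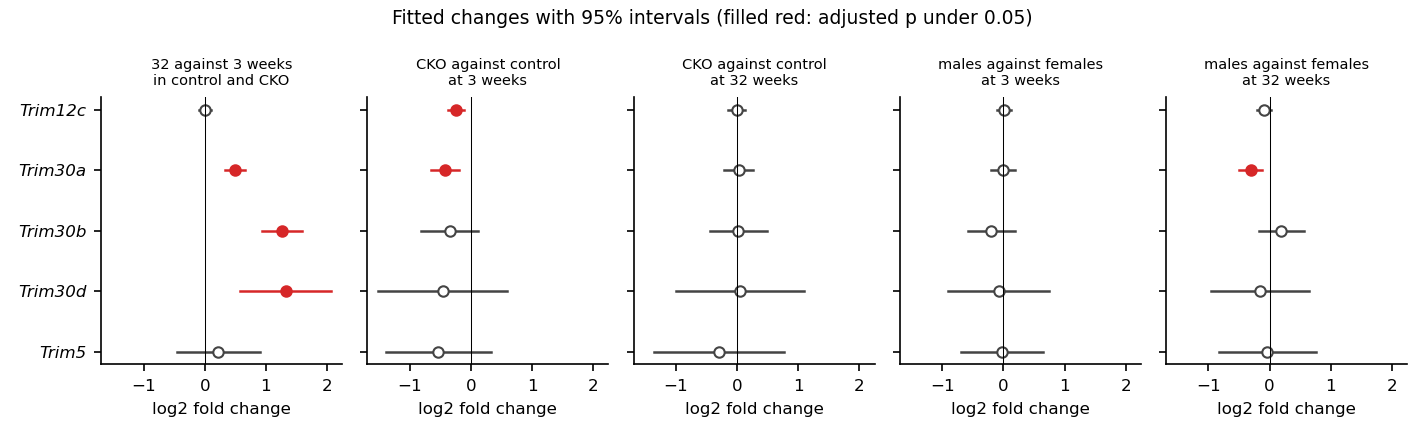
Log2 fold changes with 95% intervals of Trim5, Trim12c, Trim30a, Trim30b and Trim30d in 5 comparisons that did not choose them, red and filled where the edgeR adjusted p is under 0.05. Trim30a, Trim30b and Trim30d were higher at 32 than at 3 weeks (0.49, 1.26 and 1.32), Trim12c and Trim30a were lower in CKO at 3 weeks (-0.25 and -0.42), and Trim30a was lower in males at 32 weeks (-0.31).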

How the data were processed

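Poly(A) RNA libraries of femoral marrow were prepared with a stranded kit and sequenced. The authors removed contaminants with Bowtie2 2.2.5, aligned reads to mm10 with STAR 2.7.3a, quantified them against RefSeq transcripts. The file they deposited holds 1 unnormalized count per gene and library. The authors also deposited TMM-scaled values on the log2 scale with 1 added, used here only in limma 3.58.1 as an alternative. Features named by a number, with 0.22% of counts, were left out. Raw counts of 35 libraries in 12 groups from the labels were tested in R 4.3.3 by the quasi-likelihood method in edgeR 4.0.16 (TMM, filter by group at 10 counts, Benjamini-Hochberg adjusted p under 0.05 over 15575 genes). DESeq2 1.42.0 and other settings were alternatives. The test was also run on simulated data, whose outcome is not given here and from which nothing is read. The cluster genes, the gene lists and the settings were chosen with earlier results of these data known. Other genes were named by rule: those inside the cluster, called neighbours, the 5 most like each of Trim12a, Trim5 and Trim30d, up to 3 per list and direction by adjusted p, and Nox4. Exceptions are marked in the text. Limits for 0 counts are 3 counts, and they and the 95% intervals of counts cover counting error only. Replicate numbers did not pair the samples.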

Additional observations from a re-analysis of the deposited data

How the results depend on the processing

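The 3 rises with age and the 2 falls in CKO at 3 weeks passed under every alternative run on them, left-out libraries included. Over all genotypes the log2 fold change of Trim5 with age was 0.212, and 0.534 without Nox4-/- males of 3 weeks replicate 1. That fit left 1 library in its group, so only the size is given. In control and CKO, the change of Trim5 with age ran from 0.148 to 0.309 with 1 library left out. With library size only, 1 gene was called in CKO against control over both ages and 0 in males against females at 32 weeks, and with DESeq2 1 was called in the difference of the CKO effect between ages (Trim30a, adjusted p = 0.0435). Leaving out 1 library gave 0 to 2 calls in CKO against control, with 2 without control females of 3 weeks replicate 3 and 1 without control males of 3 weeks replicate 3. It gave 0 to 1 in males against females at 32 weeks, and 0 to 2 in the difference of the CKO effect, with 2 without control females of 3 weeks replicate 3 and 1 without CKO males of 3 weeks replicate 2. Library size only moved the median of all genes with age by 0.134 in control and CKO and called Trim12c higher, by 0.14 (edgeR adjusted p = 0.018). The same setting took the share of calls that were higher from 64.5% to 16.6% in CKO against control, from 55.1% to 22.3% at 3 weeks, from 47.5% to 82.6% in the difference and from 49.7% to 59.8% with age in control and CKO.

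Values near 0 changed sign, and the cause was not tested. Trim12c in CKO against control at 32 weeks was 0 after removal of the trend with GC content and length, added after seeing the data. With age it was -0.01 without a filter and -0.014 with limma, and -0.021 and -0.019 in control and CKO. The summed cluster in CKO at 32 weeks was -0.007 with library size only, -0.001 without a filter and -0.002 with limma. In males against females at 32 weeks it was -0.182 in both fits, with an edgeR adjusted p of 0.106 with all groups and 0.0401 with the compared groups alone. With 1 library left out, Trim12c ran from -0.037 to 0.013 and Trim30a from -0.034 to 0.084 in CKO at 32 weeks, Trim12c from -0.007 to 0.026 with age and from -0.017 to 0.031 in control and CKO, and Trim5 from -0.214 to 0.1 and Trim30d from -0.341 to 0.002 between the sexes at 32 weeks. The summed cluster ran from -0.185 to -0.117 in CKO over both ages, from -0.375 to -0.239 at 3 weeks, from -0.039 to 0.037 at 32 weeks and from 0.243 to 0.379 in the difference. Without control females of 3 weeks replicate 3 it passed in CKO over both ages (edgeR adjusted p = 0.0437) and in the difference (0.0452), which it did not with all libraries (0.109 and 0.107).

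Counts over all genes differed by over 1.5 times in some fits. With DESeq2 they were 1689 for 1078 in CKO against control, 199 for 81 between the sexes at 3 weeks, 1446 for 876 in the difference of the CKO effect and 7 for 3 in Nox4-/- against control. With the compared groups alone they were 422, 24, 455 and 1, and 2070 for 4033 in CKO at 3 weeks. Others were 36 (library size only) and 52 (limma) between the sexes at 3 weeks, 155 in the difference after removal of the GC and length trend, 3 for 1 in CKO at 32 weeks without a filter, and 1 in Nox4-/- with limma or at least 10 counts in every library.

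A block for the replicate number changed no call of a cluster gene, with 2 genes called in CKO at 3 weeks, 3 with age and 1 between the sexes at 32 weeks. Over 187 pairs of same-numbered libraries, deviations from the group means had correlations of -0.147 to 0.327 (median 0.007), so the numbers do not pair the samples.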
